A study of Mus musculus with 19 samples.

Results

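The genes described here are 9 markers of mural cells, the cells that wrap the outside of brain vessels. They were chosen by name and cell type, not by a threshold on measured values. Pdgfrb and Notch3 are shared by pericytes and smooth muscle cells. Rgs5, Abcc9, Vtn and Anpep are counted here as genes of capillary pericytes, a name given before their values were read together. Acta2, Tagln and Myh11 are contractile genes of arterial smooth muscle. Matched by symbol to Ensembl identifiers, all 9 were found among the 48709 genes of the count files and all 9 were among the 19286 genes tested, a gene being tested when 50% or more of the libraries held 5 reads of it or more.

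Pericytes sit in the basement membrane of capillaries, where endothelial PDGF-B holds them through the receptor PDGFRB, and they support the blood-brain barrier. Smooth muscle cells form rings around arteries and arterioles and change the vessel's width through smooth muscle actin and myosin. Notch3 receives ligands such as JAG1 from the endothelium and keeps arterial smooth muscle in its contractile state. Loss of pericytes and of arterial smooth muscle has been described in aged brain, and mural cells are a small share of the cells in hippocampal tissue.

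The study asked whether inhibiting 3 microRNAs alters gene expression in the aged hippocampus of wild-type male C57B/6J mice. All mice received lipid nanoparticles by injection into the dorsal hippocampus, so no group was free of surgery and carrier. Young mice (3 months, n = 6 libraries) and old control mice (16.5 months, n = 6) received control oligonucleotides, and old anti-miR-mix mice (16.5 months, n = 7) received a mix that inhibits miR-148a-3p, miR-146a-5p and also miR-181a-5p. The CA1 region was microdissected, and polyadenylated RNA was sequenced. No young mice received the inhibitors. Levels of the microRNAs themselves are not measured by polyadenylated RNA and were not analysed here.

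The libraries held 26653511 to 38908947 reads counted in genes. The 6 CA1 pyramidal markers summed to between 773.1 and 1125.0 CPM (reads scaled to library size) over the libraries, and the 5 dentate granule markers to between 45.5 and 113.6. Old control replicates 5 and 6 were the most alike of all pairs within a group (chi-square per degree of freedom 2.18, against 6.10 for the next pair) but differed by more than counting noise and were kept as separate libraries. Separate preparations of 1 RNA can also differ by more than counting noise, and the labels do not say whether the 2 came from separate animals. With them merged, 0 of 9 members passed in any comparison. A number from 1 to 4 for each library, recovered from the way the deposited log2 values had been adjusted and here called the processing number, was unevenly spread over the groups (no old control library had the number 3). Markers of tissue next to CA1 varied between libraries. The summed CPM of 10 leptomeningeal fibroblast markers ran from 73.0 in young replicate 4 to 316.8 in young replicate 6, and that of 8 choroid plexus markers from 17.0 to 106.4, highest in old anti-miR-mix replicate 2 and old control replicates 5 and 6. The summed CPM of 8 microglial markers was 350.8 to 455.7 in young, 446.8 to 525.6 in old control and 521.6 to 689.4 in old anti-miR-mix libraries. No marker of these lists was at 0 in a whole group.

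A microRNA recognises its targets mainly through its seed, bases 2 to 8, which pairs with sites of matching sequence, usually behind the coding part of a messenger RNA (its 3′UTR). The mature sequences of the microRNAs that the treatment inhibits are shown from RefSeq (GRCm38.p6), with the seed in capitals, since such sites are the ones searched for in the member genes.
miR-146a-5p: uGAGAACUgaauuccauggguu
miR-148a-3p: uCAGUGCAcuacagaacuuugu
miR-181a-5p: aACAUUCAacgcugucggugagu
The 3 seeds differed from each other. A match to bases 2 to 8 was searched for in the annotated 3′UTRs (GENCODE, GRCm38). Of the 9 members, Rgs5 (3′UTR of 3473 bases), Notch3 (1000 bases) and Abcc9 (2680 bases) each held 1 match, and Pdgfrb, Vtn, Anpep, Acta2, Tagln and Myh11 held none. The sites are shown with their surrounding bases on the messenger strand, the match in capitals.
Rgs5, chromosome 1, miR-146a-5p match: acctgcacAGTTCTCcatagcag
Notch3, chromosome 17, miR-148a-3p match: ccaggtccTGCACTGtacaaccc
Abcc9, chromosome 6, miR-181a-5p match: gttggagcTGAATGTcatgatgt
They began at base 85 of the Rgs5 3′UTR, base 936 of the Notch3 3′UTR and base 1856 of the Abcc9 3′UTR. Among 15339 tested genes with an annotated 3′UTR, 12.4% held the match to miR-146a-5p, 14.9% that to miR-148a-3p and 18.1% that to miR-181a-5p. A match describes the sequence and does not show that the site is used.

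Per length of transcript, the pericyte genes Vtn and Rgs5 were the strongest of the 9 and the pericyte gene Anpep the weakest, with the smooth muscle genes between them. Measured as CPM divided by the exon length in kilobases (FPKM, n = 19), Vtn, a secreted adhesion protein made by brain pericytes, averaged 25.6 ± 3.24 (SD) and Rgs5, a regulator of G protein signalling that is a standard pericyte marker, 22.6 ± 1.70. Vtn was above Rgs5 in 14 of 19 libraries, so that these neighbours did not separate. Pdgfrb followed at 5.10 ± 0.379 and was below Rgs5 in all 19 libraries. Tagln, which encodes the actin-binding protein transgelin, stood at 3.04 ± 0.643 and Acta2, smooth muscle alpha-actin, at 2.89 ± 0.762, with Tagln the higher in 11 of 19 libraries. Notch3 averaged 1.83 ± 0.124 and was below Acta2 in 18 of 19 libraries. Abcc9, the sulphonylurea receptor subunit of the pericyte potassium channel, averaged 1.35 ± 0.115 and was below Notch3 in all 19. Myh11, smooth muscle myosin heavy chain (0.979 ± 0.195), and Anpep, the surface peptidase CD13 (0.884 ± 0.255), came last, and Myh11 was the higher in 10 of 19 libraries. Raw counts ran from 71 to 197 reads for Anpep and from 2639 to 4016 for Rgs5, so the lowest member was still well above the filter.

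Libraries of one group differed much more in the smooth muscle genes and Anpep than in the other members. On the log2 CPM scale, the pooled standard deviation within groups was 0.0995 for Rgs5, 0.103 for Notch3, 0.107 for Pdgfrb, 0.125 for Abcc9 and 0.171 for Vtn. It was 0.261 for Tagln, 0.264 for Myh11, 0.32 for Acta2 and 0.362 for Anpep, against a median of 0.147 over all genes tested. Counting error alone, taken from the mean count, would give a standard deviation of 0.104 for Tagln, 0.102 for Acta2, 0.0942 for Myh11 and 0.135 for Anpep. The observed spread of these 4 genes was between 2.5 and 3.14 times the counting error. It was 1.54 times the counting error for Notch3, 1.63 for Abcc9, 2.21 for Pdgfrb, 3.93 for Rgs5 and 4.80 for Vtn, the last 2 being the genes with the most reads and the smallest counting error.

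**Figure D1:**
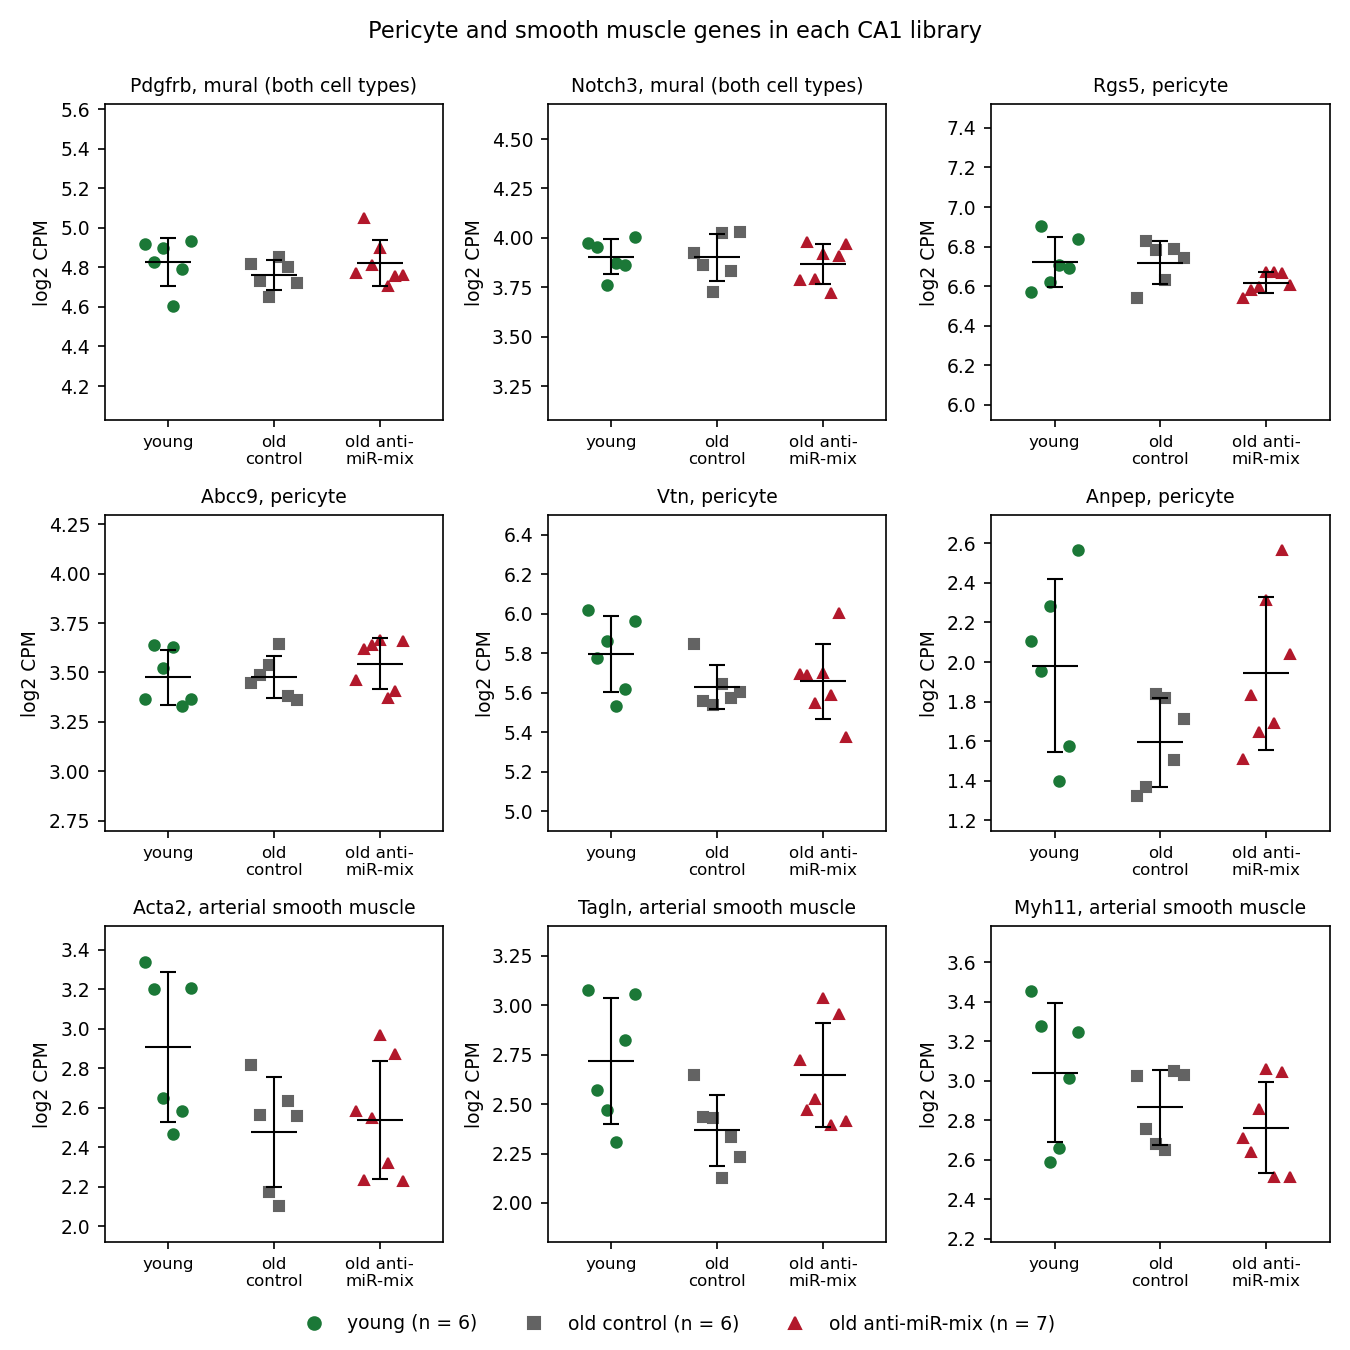
Level of each of the 9 genes in every library, as log2 CPM, with 1 point per library, a black bar for the group mean and whiskers for the SD (young n = 6, old control n = 6, old anti-miR-mix n = 7). All panels span the same height of 1.6 log2 units, and the points of Rgs5, Notch3, Pdgfrb and Abcc9 lie close together while those of Anpep, Acta2, Tagln and Myh11 are spread, with the 3 groups overlapping in every panel.

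The comparison of old control with young mice asked how these genes change with age. The smooth muscle genes were lower on average in old control libraries, and Notch3, Rgs5 and Abcc9 differed by less than 0.01 on the log2 scale, but 0 of 9 genes passed the test. For Acta2, the young libraries ran from 2.47 to 3.34 log2 CPM with a median of 2.93, and the old control libraries from 2.10 to 2.82 with a median of 2.56. All 6 old control libraries were below the young median, 2 of them below every young library, and the groups overlapped. The log2 fold change was -0.45 ± 0.17 (SE), or 0.734 of the young level with a 95% interval of 0.576 to 0.936 (edgeR quasi-likelihood test, Benjamini-Hochberg adjusted p = 0.161). In these tissue samples, fewer cells of a type and less RNA per cell cannot be told apart.

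Tagln ran from 2.31 to 3.08 log2 CPM in young (median 2.70) and from 2.12 to 2.65 in old control libraries (median 2.38). Its old control values were again all below the young median, with 2 of 6 below every young library and a log2 fold change of -0.37 ± 0.14 (edgeR adjusted p = 0.169). Myh11 ran from 2.59 to 3.45 in young (median 3.13) and from 2.65 to 3.05 in old control libraries (median 2.89). The old control values of Myh11 lay within the young range, all 6 below the young median, and the log2 fold change of -0.19 ± 0.14 had a 95% interval from -0.48 to 0.10 (edgeR adjusted p = 0.503). Young replicates 1, 2 and 6 were the highest of their group in Acta2 and Myh11, and young replicate 4 was the lowest or next to lowest of its group in all 3 smooth muscle genes. Without young replicate 1, the difference of Myh11 was -0.10 in place of -0.19.

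Among the pericyte genes, Anpep showed the largest difference. It ran from 1.40 to 2.57 log2 CPM in young (median 2.03) and from 1.32 to 1.84 in old control libraries (median 1.61). All 6 old control values were below the young median and the groups overlapped, with a log2 fold change of -0.44 ± 0.20 (edgeR adjusted p = 0.245). Without young replicate 6 the difference was -0.30, and without young replicate 4 it was -0.54. Vtn ran from 5.53 to 6.02 in young (median 5.82) and from 5.54 to 5.85 in old control libraries (median 5.59), a log2 fold change of -0.17 ± 0.089 (edgeR adjusted p = 0.316). Old control replicate 1 was above the young median, and the other 5 libraries were below it.

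The remaining pericyte and mural genes gave narrow intervals around 0. Rgs5 ran from 6.57 to 6.90 log2 CPM in young (median 6.70) and from 6.54 to 6.83 in old control libraries (median 6.76). Its old control level was 0.997 of the young level, with a 95% interval of 0.922 to 1.08. Abcc9 ran from 3.33 to 3.64 (median 3.44) and from 3.36 to 3.64 (median 3.47), a ratio of 0.999 with an interval of 0.899 to 1.11. Notch3 ran from 3.76 to 4.00 (median 3.91) and from 3.73 to 4.03 (median 3.89), with an interval of the ratio of 0.915 to 1.09. Pdgfrb, the receptor through which pericytes are held on capillaries, ran from 4.60 to 4.93 (median 4.86) and from 4.65 to 4.85 (median 4.77), a ratio of 0.955 with an interval of 0.876 to 1.04, and all 6 old control libraries were below the young median.

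Counted together, 0 of 9 members passed the adjusted threshold of 0.05, where 2.67% of all genes tested did (514 of 19286). At an unadjusted p under 0.05, 3 of 9 passed (Acta2, Tagln and Anpep, all lower), against 18.1% of all genes. The values of old control and young libraries did not overlap in 0 of 9 members and in 2.54% of all genes. All 9 log2 fold changes were below 0, with a median of -0.17 over the 9, -0.37 over the 3 smooth muscle genes, -0.088 over the 4 pericyte genes and -0.034 over Pdgfrb and Notch3, beside a median of 0.0064 over all genes tested. The values of Rgs5, Notch3 and Abcc9 were within 0.01 of 0, and their signs turned under several settings. DESeq2 in place of edgeR also called 0 of 9, with its lowest adjusted p at 0.0967 for Acta2. With the processing number as a factor in the edgeR fit, the difference of Acta2 was -0.51 (adjusted p = 0.108) and that of Tagln -0.42 (adjusted p = 0.098).

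**Figure D2:**
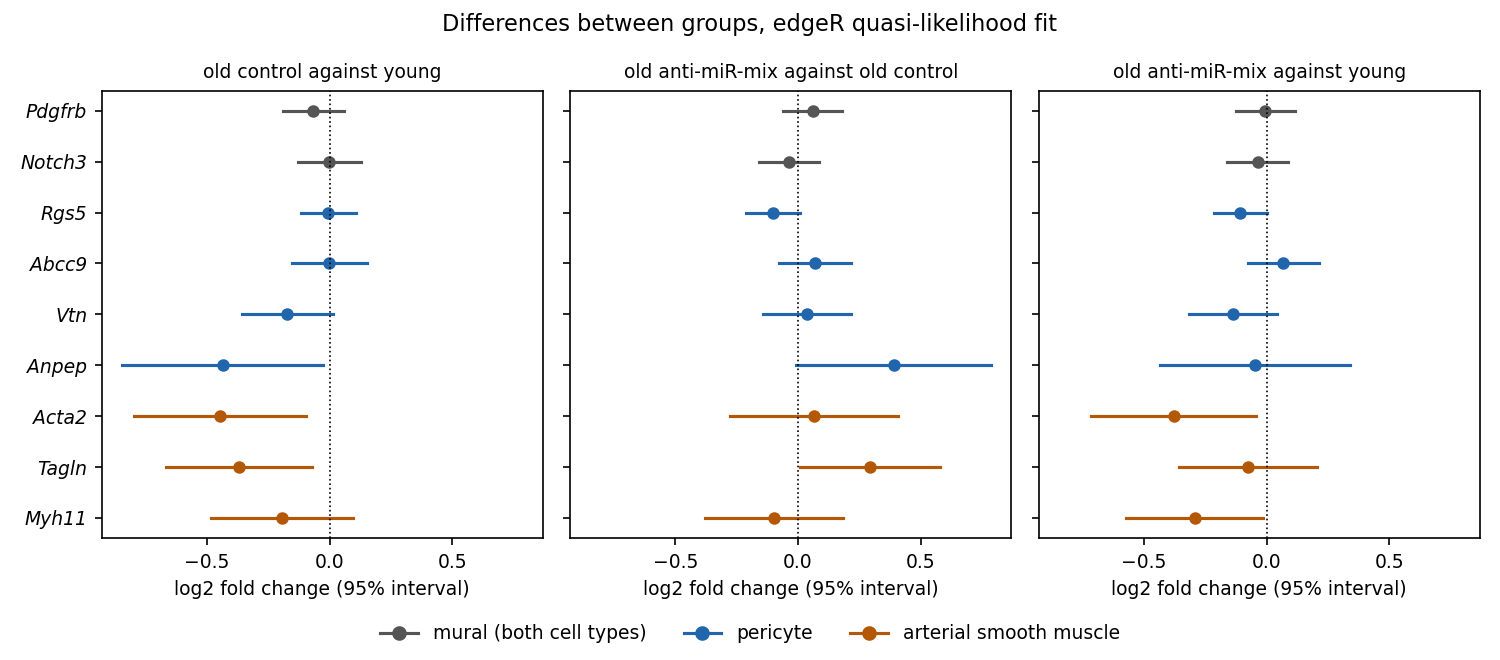
Log2 fold change of each gene (point) with its 95% interval (line) in the edgeR fit, for old control against young, old anti-miR-mix against old control and old anti-miR-mix against young; colours mark the gene class. In the left panel all 9 points lie at or left of 0, with Acta2 at -0.45 and Anpep at -0.44 the lowest, and the intervals of Rgs5, Notch3, Abcc9 and Pdgfrb are the narrowest in each panel.

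The comparison of old anti-miR-mix with old control mice asked what the microRNA inhibitors changed. No member passed the test, and the 2 largest differences were those of Anpep and Tagln, whose libraries also scattered widely within groups. Tagln ran from 2.40 to 3.04 log2 CPM in old anti-miR-mix libraries (median 2.52), against 2.12 to 2.65 in old control libraries. No old anti-miR-mix library was below the old control median, 3 of 7 were above every old control library, and the log2 fold change was 0.29 ± 0.14 (edgeR adjusted p = 0.463). The other smooth muscle genes did not share it. Acta2 ran from 2.23 to 2.97 (median 2.55), with a log2 fold change of 0.066 ± 0.16, and Myh11 from 2.51 to 3.06 (median 2.71), with -0.10 ± 0.14, and 3 of 7 old anti-miR-mix libraries were below every old control library in Myh11. The exons of Tagln overlap those of Pcsk7 and Gm48529 on the opposite strand. The library kit did not mark strand, so reads of these genes cannot be separated there.

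Anpep ran from 1.51 to 2.57 log2 CPM in old anti-miR-mix libraries (median 1.83) and was above every old control library in 3 of 7, with a log2 fold change of 0.39 ± 0.19 and a 95% interval from -0.0087 to 0.79 (edgeR adjusted p = 0.49). Without old anti-miR-mix replicate 6 the difference was 0.26. Rgs5 had the tightest old anti-miR-mix values of any member, from 6.54 to 6.67 (median 6.60). All 7 were below the old control median, but the ranges overlapped, and the level was 0.931 of old control with an interval of 0.864 to 1.00 (edgeR adjusted p = 0.509). Vtn ran from 5.38 to 6.00 (median 5.69), with a ratio of 1.02 and an interval of 0.905 to 1.16.

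The genes that hold a match to an inhibited microRNA are given together. Abcc9 ran from 3.37 to 3.66 log2 CPM in old anti-miR-mix libraries (median 3.62), a ratio to old control of 1.05 with an interval of 0.948 to 1.16. Notch3 ran from 3.72 to 3.98 (median 3.91), a ratio of 0.975 with an interval of 0.896 to 1.06. Rgs5, the third of them, was the member with the lowest ratio (0.931), with all 7 libraries below the old control median. Pdgfrb, which holds no match, ran from 4.71 to 5.05 (median 4.77), a ratio of 1.04 with an interval of 0.96 to 1.13, and its highest library was old anti-miR-mix replicate 2.

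In this comparison 0 of 9 members passed the adjusted threshold, where 0.669% of all genes did (129 of 19286). At an unadjusted p under 0.05, 1 of 9 passed (Tagln, higher), against 10.5% of all genes. The ranges did not overlap in 0 of 9 members and in 0.498% of all genes. Of the 9 log2 fold changes, 6 were above 0 and 3 below, with a median of 0.061 beside 0.00035 over all genes tested. DESeq2 also called 0 of 9.

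Old anti-miR-mix libraries were also set against young libraries, a comparison that shares its samples with both others and in which age and treatment differ together. None of the 9 members passed the adjusted threshold, where 6.2% of all genes did (1196 of 19286). At an unadjusted p under 0.05, 2 of 9 passed (Acta2 and Myh11, both lower), against 19.6% of all genes, and ranges did not overlap in 0 of 9 members and in 2.42% of all genes. Acta2 had a log2 fold change of -0.38 ± 0.16 (edgeR adjusted p = 0.186), with 3 of 7 old anti-miR-mix libraries below every young library. Myh11 had one of -0.29 ± 0.13 (edgeR adjusted p = 0.231), with all 7 below the young median. Tagln, at -0.076 ± 0.14, and Anpep, at -0.046 ± 0.19, lay near the young level. Rgs5 was at 0.928 of the young level, with an interval of 0.861 to 1.00 (edgeR adjusted p = 0.261), and the intervals of Pdgfrb, Notch3 and Abcc9 were 0.916 to 1.08, 0.895 to 1.06 and 0.948 to 1.16. Over the 9 members the median was -0.076, beside 0.0028 over all genes, with 8 below 0 and Abcc9 above it. DESeq2 called 0 of 9 here as well.

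To set pericyte against arterial smooth muscle genes within each library, the mean log2 CPM of Acta2, Tagln and Myh11 was subtracted from that of Rgs5, Abcc9, Vtn and Anpep. The difference was 1.61 ± 0.28 (SD, n = 6) in young, 1.79 ± 0.25 (n = 6) in old control and 1.79 ± 0.18 (n = 7) in old anti-miR-mix libraries. The young libraries ran from 1.23 to 2.00, the old control libraries from 1.46 to 2.14 and the old anti-miR-mix libraries from 1.57 to 2.03, so the 3 groups overlapped widely. The group means differed by 0.18 between old control and young, by 0.0071 between old anti-miR-mix and old control and by 0.19 between old anti-miR-mix and young. The pooled standard deviation within groups was 0.24, a spread of single libraries and not the error of a group mean. Of the 2 parts, the smooth muscle mean was 2.89 ± 0.33 in young, 2.57 ± 0.19 in old control and 2.65 ± 0.26 in old anti-miR-mix libraries, and the pericyte mean was 4.49 ± 0.15, 4.35 ± 0.061 and 4.44 ± 0.14. The difference between old control and young was larger in smooth muscle (-0.32, pooled SD 0.26) than in pericyte genes (-0.14, pooled SD 0.12). Among the pericyte genes, Anpep went from a mean of 1.98 in young to 1.59 in old control libraries and Vtn from 5.80 to 5.63. Rgs5 (6.72 and 6.72) and Abcc9 (3.47 and 3.48) stayed level. No test was made of the pericyte and smooth muscle means or of their difference, because the genes were chosen with results of the series known.

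**Figure D3:**
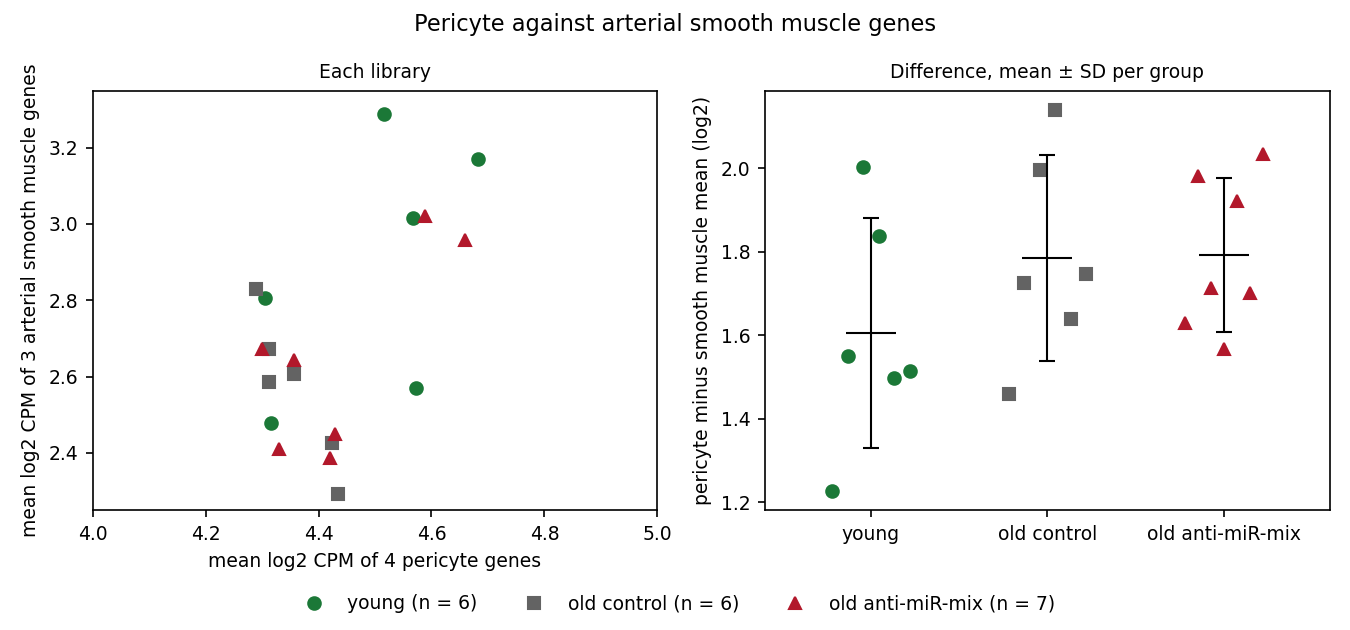
Left, the mean log2 CPM of the 4 pericyte genes (x axis) against that of the 3 arterial smooth muscle genes (y axis), with 1 point per library; right, the difference of the means by group, with the group mean (bar) and SD (whiskers). Smooth muscle means spread over about 1 log2 unit and pericyte means over less than 0.5, and the differences of the 3 groups overlap.

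The 3 smooth muscle genes moved together from library to library. After the group means were taken off, Pearson's r over the 19 libraries was 0.90 between Acta2 and Myh11 (Spearman's rho 0.85), 0.77 between Acta2 and Tagln (0.74) and 0.75 between Tagln and Myh11 (0.80). Without the 2 libraries farthest from the median, these were 0.87, 0.71 and 0.67. The 6 pairs of pericyte genes had r from -0.39 to 0.55 with a median of -0.01, so the pericyte genes did not vary as a block. Vtn followed the smooth muscle genes (r from 0.58 to 0.69), while Abcc9 ran against them (-0.43 to -0.30) and Rgs5 had values near 0 with them (-0.01 to 0.16). Pdgfrb and Notch3 had r = 0.46 with each other. These correlations are descriptions over 36 pairs in the same 19 libraries, whose values share depth, normalization and dissection.

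**Figure D4:**
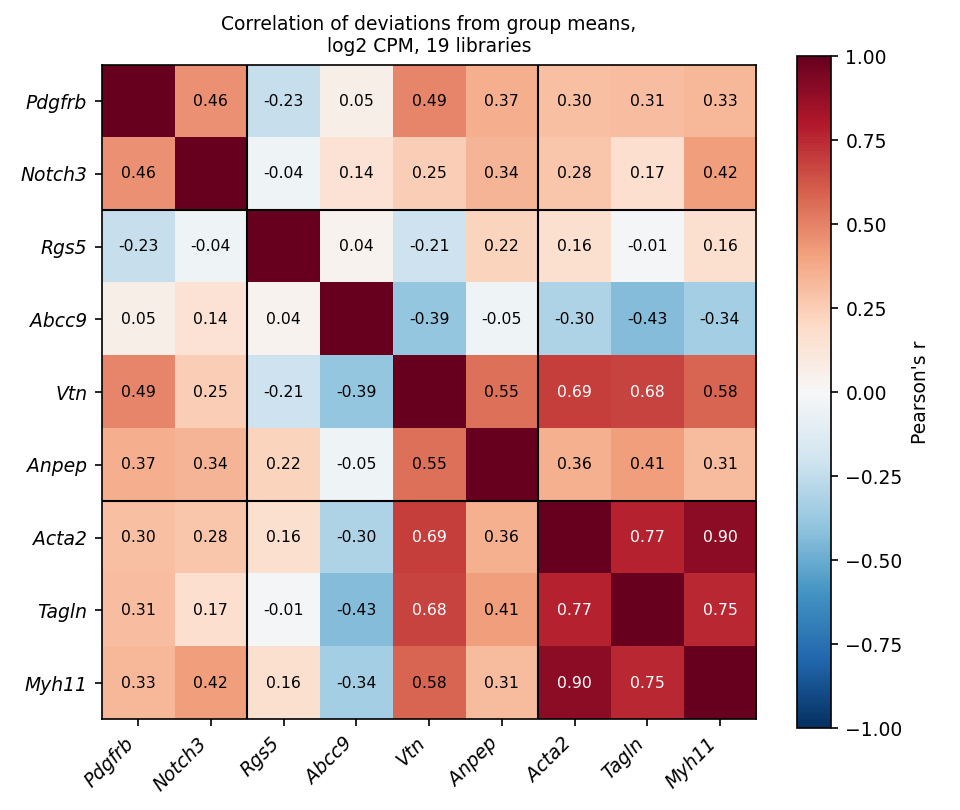
Pearson's r between the 9 genes over 19 libraries, computed on log2 CPM after each group's mean was taken off; black lines part the genes shared by mural cells, the pericyte genes and the smooth muscle genes, in that order. The dark block at lower right holds the smooth muscle genes (0.75 to 0.90), Vtn has 0.58 to 0.69 with them, and Abcc9 has negative values.

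The promoter of Acta2 is shown because the serum response factor SRF, with its partner myocardin, is known to drive contractile genes through CArG boxes. A CArG box has the pattern CC, 6 bases of A or T, GG. Whether SRF has a part in the shared movement of Acta2, Tagln and Myh11 was not tested. From RefSeq (GRCm38.p6), the 150 bases before the start of Acta2 on the minus strand of chromosome 19 (34255374 to 34255523) read as follows, with CArG-like boxes in capitals, in which at most 1 of the 6 inner bases is not A or T.
Acta2: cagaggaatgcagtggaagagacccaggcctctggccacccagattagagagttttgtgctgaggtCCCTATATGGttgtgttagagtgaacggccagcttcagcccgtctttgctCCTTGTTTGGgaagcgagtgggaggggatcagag
The 2 boxes began at positions -84 and -34 from the start. Of the 6 members whose RefSeq promoter windows of 300 bases were searched (Acta2, Rgs5, Abcc9, Vtn, Anpep and Notch3), none held an exact CArG box and Acta2 alone held a CArG-like one. The windows of Tagln, Myh11 and Pdgfrb were not analysed here. Among 32851 promoter windows of that length, 1.63% held an exact box, 9.98% at least 1 CArG-like box and 0.822% at least 2. The pattern is its own reverse complement, so a search of one strand covers both. TGGGAA, the core bound by the Notch factor RBPJ, searched on both strands, was found in Acta2 (1), Abcc9 (1) and Vtn (3), and in 25.6% of all windows.

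Anpep, Vtn and the smooth muscle genes also moved with the leptomeningeal fibroblast markers. With group means taken off, r with the log2 of the summed marker CPM was 0.84 for Anpep (Spearman's rho 0.81), 0.72 for Vtn, 0.62 for Tagln, 0.53 for Acta2, 0.52 for Myh11 and 0.49 for Pdgfrb, and it was 0.07 for Rgs5 and -0.46 for Abcc9. Without young replicates 4 and 6, the libraries with the lowest and highest marker sums, it was 0.77 for Anpep, 0.64 for Vtn, 0.41 for Tagln, 0.36 for Acta2, 0.37 for Myh11 and 0.12 for Pdgfrb. The marker sums had medians of 170.9 in young, 174.6 in old control and 155.6 in old anti-miR-mix libraries. Of the 10 markers, 0 passed the test between old control and young, with 9 below 0 and a median of -0.58. At an unadjusted p under 0.05 in edgeR, 6 of the 10 were lower, where 18.1% of all genes passed in either direction. Young replicate 6 and old anti-miR-mix replicate 6 had the highest marker sums (316.8 and 279.7) and the highest Anpep values of their groups. The 8 markers of border-associated macrophages, which sit in the meninges and around vessels, also moved with some members, with r of 0.77 for Anpep, 0.70 for Pdgfrb and 0.62 for Vtn. Their summed CPM had medians of 10.3 in young, 7.90 in old control and 12.5 in old anti-miR-mix libraries. Anpep had medians of 2.03, 1.61 and 1.83 log2 CPM in these groups. Of the 8 macrophage markers, 0 passed between old control and young (2 lower at an unadjusted p under 0.05 in edgeR, against 18.1% of all genes). In old anti-miR-mix against old control libraries 1 was higher, where 0.669% of all genes passed. The summed CPM of 7 astrocyte markers ran against Acta2 (r = -0.56), Tagln (-0.43) and Myh11 (-0.42). So did the sums of the 8 microglial markers (-0.47, -0.48 and -0.40) and of the 5 dentate granule markers (-0.39, -0.39 and -0.53). Anpep, counted here as a pericyte gene, had r of 0.55 with Vtn but 0.22 with Rgs5 and -0.05 with Abcc9. Its reads cannot be assigned to pericytes alone in this tissue. The part of these tissues and cells in the differences of the members was not tested. In a fit without young replicates 4 and 6 and old anti-miR-mix replicate 6, chosen after seeing the data, 0 of 9 members passed in any comparison.

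**Figure D5:**
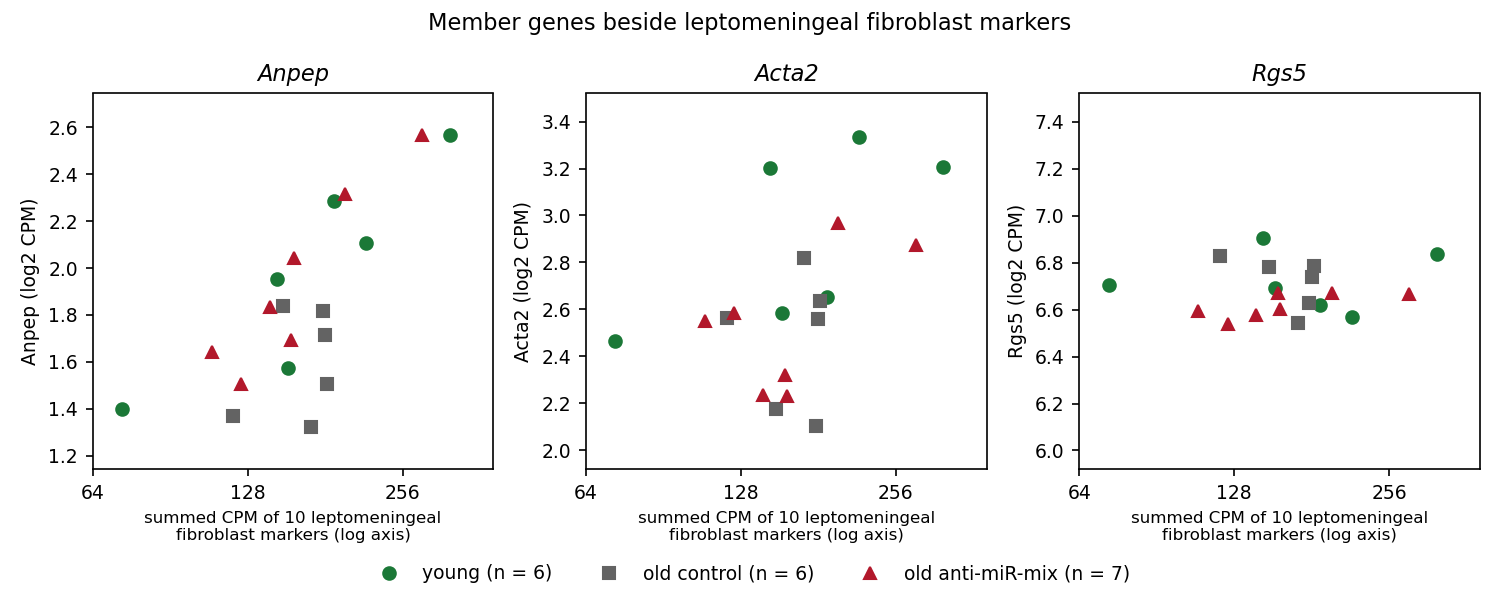
Level of Anpep, Acta2 and Rgs5 (log2 CPM, y axes of equal span) against the summed CPM of 10 leptomeningeal fibroblast markers (x axis, log scale), with 1 point per library. Anpep is highest in the 2 libraries with the largest marker sums, 316.8 and 279.7, Acta2 is more loosely related to the sums, and Rgs5 stays between 6.54 and 6.90 over the whole range.

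Endothelial and blood markers were read beside the members, since mural cells lie on the same vessels. The summed CPM of 10 endothelial markers was 319.7 to 355.4 in young, 304.5 to 327.5 in old control and 295.1 to 355.9 in old anti-miR-mix libraries. With group means taken off, r with the endothelial sum was 0.45 for Acta2, 0.41 for Tagln, 0.52 for Myh11 and 0.12 for Rgs5. Of the 10 endothelial markers, 1 was lower in old control than in young libraries, where 2.67% of all genes passed. At an unadjusted p under 0.05 in edgeR, 3 were lower, against 18.1% of all genes. Between old anti-miR-mix and old control 0 passed, with 1 higher and 1 lower at an unadjusted p under 0.05 (10.5% of all genes). Against young libraries 1 was lower (6.2% of all genes passed), with 1 higher and 1 lower at an unadjusted p under 0.05 (19.6% of all genes). The summed CPM of 5 red blood cell genes was 21.9 to 44.9 in young, 17.7 to 43.7 in old control and at most 42.4 in old anti-miR-mix libraries, with r of 0.49 with Acta2, 0.54 with Vtn and -0.19 with Anpep.

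Other genes of the same cells and pathways were taken from 6 lists with 68 genes. Of all genes tested, 2.67% passed in old control against young, 0.669% in old anti-miR-mix against old control and 6.2% in old anti-miR-mix against young. At an unadjusted p under 0.05 in edgeR, 18.1%, 10.5% and 19.6% did, and the counts of each list below stand beside these shares. Of 15 further pericyte genes, 0 passed the test in any of the 3 comparisons, with medians of -0.11, 0.046 and -0.12 for old control against young, old anti-miR-mix against old control and old anti-miR-mix against young. The most abundant were Mcam, an adhesion molecule of vessel walls, at -0.20 ± 0.080, 0.10 ± 0.077 and -0.094 ± 0.076, and Cspg4, the NG2 proteoglycan that oligodendrocyte precursors also carry, at 0.0068 ± 0.056, 0.046 ± 0.054 and 0.053 ± 0.054. Between old control and young libraries, 9 of the 15 were below 0 and 3 were lower at an unadjusted p under 0.05 in edgeR, against 1 lower in old anti-miR-mix against old control and 4 lower in old anti-miR-mix against young.

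Of 14 further smooth muscle genes tested, most of them contractile (Actg2 did not pass the filter), 3 passed with age, and not in one direction. At an unadjusted p under 0.05 in edgeR, 2 were higher and 4 lower. Lmod1, leiomodin, which builds actin filaments in smooth muscle, fell from 1.05 ± 0.17 to 0.49 ± 0.18 log2 CPM (edgeR adjusted p = 0.0108), and its groups did not overlap. Synpo2, an actin-binding protein, rose from 2.80 ± 0.15 to 3.24 ± 0.15 (adjusted p = 0.00865) and Sncg, gamma-synuclein, which neurons also express, rose from 0.70 ± 0.21 to 1.33 ± 0.25 (adjusted p = 0.012). The list had a median of -0.087 and 9 of 14 genes below 0. Synpo2 passed in all 31 alternatives, Lmod1 in 30 and Sncg in 29. Lmod1 and Sncg were lost without old control replicates 5 and 6 and old anti-miR-mix replicate 2 (adjusted p = 0.064 for Lmod1), and Sncg also without young replicates 4 and 6 and old anti-miR-mix replicate 6. Myl9, the regulatory light chain of smooth muscle myosin, singled out after its values were seen, had a log2 fold change of -0.34 ± 0.10 with an adjusted p of 0.0689, and of 0.0405 with the processing number as a factor. In old anti-miR-mix against old control, 0 of 14 passed and 1 was higher at an unadjusted p under 0.05 in edgeR (Tpm1 -0.012 ± 0.031, Cald1 0.075 ± 0.065). In old anti-miR-mix against young, Synpo2 was higher (0.46 ± 0.084, adjusted p = 0.00154) and Pln, phospholamban, lower (-0.61 ± 0.16, adjusted p = 0.02). Pln was lost with the replicate number as a block (adjusted p = 0.0609), without young replicate 1 or 5, and without old control replicates 5 and 6 and old anti-miR-mix replicate 2.

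Of 13 genes of the PDGF, angiopoietin and TGF-beta signals that pass between endothelium and mural cells, the ligands Pdgfb, Pdgfa, Pdgfd, Angpt1 and Angpt2 passed in none of the comparisons. Tie1, an endothelial co-receptor of the angiopoietins, fell with age from 3.42 ± 0.14 to 3.11 ± 0.15 log2 CPM (edgeR adjusted p = 0.035). The call held in 12 of 19 fits with 1 library left out (lost without young 1, 4 or 6 or old control 2, 3, 4 or 5). It was lost with the processing number as a factor (adjusted p = 0.0544) and with old control replicates 5 and 6 merged into 1 library. In old anti-miR-mix libraries the ligand Tgfb1 was higher than in old control libraries, 2.64 ± 0.25 against 2.11 ± 0.17 (adjusted p = 0.027), as was its receptor Tgfbr2, 4.78 ± 0.20 against 4.47 ± 0.070 (adjusted p = 0.0477). Both were lost with the processing number as a factor (adjusted p = 0.29 and 0.395). They were also lost with old control replicates 5 and 6 merged into 1 library and with only the 2 groups compared. They held in 10 and 5 of 19 fits with 1 library left out. Tgfb1 was lost without old control 1, 2, 3, 5 or 6 or old anti-miR-mix 2, 3, 4 or 5, and Tgfbr2 without these libraries, old control 4 or young 1, 2, 5 or 6. Against young libraries, Tgfb1 (0.69 ± 0.11, adjusted p = 0.000674), Tgfbr1 (0.44 ± 0.086, adjusted p = 0.0022) and Tgfbr2 (0.47 ± 0.076, adjusted p = 0.000536) were higher and passed in all 31 alternatives. Microglia also express these 3 genes, and of the 8 microglial markers 4 were higher in old anti-miR-mix than in old control libraries and 7 higher than in young libraries. Of all genes, 0.669% and 6.2% passed in these comparisons. The part of microglia in these values was not tested.

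Of 10 Notch ligands and targets, 2 passed with age, both higher. Jag1, a ligand that endothelium presents to Notch3, rose from 2.66 ± 0.19 to 3.03 ± 0.14 log2 CPM (edgeR adjusted p = 0.0364). Heyl, a Notch target of mural cells, rose from 1.74 ± 0.25 to 2.36 ± 0.35 (edgeR adjusted p = 0.0251), while Notch3 itself differed by less than 0.01. These tissue samples do not show which cells the reads of Jag1 and Heyl came from. Jag1 held in 12 of 19 fits with 1 library left out (lost without young 1, 3 or 4 or old control 1, 2, 5 or 6) and Heyl in 15 (lost without young 4 or old control 1, 5 or 6), and Jag1 was lost with the processing number as a factor (adjusted p = 0.0652) and with the replicate number as a block. Neither was called with old control replicates 5 and 6 merged into 1 library, or without young replicates 4 and 6 and old anti-miR-mix replicate 6. Without old control replicates 5 and 6 and old anti-miR-mix replicate 2, neither was called (adjusted p = 0.15 for Jag1 and 0.162 for Heyl). Between old anti-miR-mix and old control libraries 0 of 10 passed, and 0 at an unadjusted p under 0.05 in edgeR (Hey1 -0.026 ± 0.055, Jag2 -0.031 ± 0.046). Against young libraries Jag1 was higher (0.32 ± 0.090, adjusted p = 0.0345), a call lost without young 1, 3 or 4 or old anti-miR-mix 2, 4 or 5 and with the replicate number as a block.

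Of the 6 genes of the serum response factor axis, which switches contractile genes on and off, Klf4, a repressor of those genes that endothelium also expresses, fell with age from 2.40 ± 0.60 to 1.59 ± 0.40 log2 CPM (edgeR adjusted p = 0.0476). The groups overlapped, and the call held in 7 of 19 fits with 1 library left out (it was kept without young 1, 2, 3 or 5, old control 6 or old anti-miR-mix 1 or 4) and not with the processing number as a factor (adjusted p = 0.122). The call of Klf4 held in 12 of 31 alternatives. It was also lost with old control replicates 5 and 6 merged into 1 library, with only the 2 groups compared and with limma on the deposited log2 values. None of the 6 passed in the other comparisons, and 0 did at an unadjusted p under 0.05 in edgeR. The abundant co-activators Mrtfb and Mrtfa were at -0.071 ± 0.039 and -0.052 ± 0.067 in old anti-miR-mix against old control libraries, and at -0.015 ± 0.039 and -0.015 ± 0.067 against young libraries.

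Of 9 components of the capillary basement membrane, in which pericytes are embedded, 1 passed with age. Nid1, which links laminin and collagen IV, fell from 3.16 ± 0.29 to 2.65 ± 0.061 log2 CPM (edgeR adjusted p = 0.0202), with every old control library (2.56 to 2.71) below every young library (2.87 to 3.63). It passed in 30 of 31 alternatives and was lost without old control replicates 5 and 6 and old anti-miR-mix replicate 2 (adjusted p = 0.118). None passed in the other comparisons (at an unadjusted p under 0.05 in edgeR, 0 of 9 in old anti-miR-mix against old control, and 1 lower and 1 higher of 9 against young), where the collagen IV chains Col4a1 and Col4a2 were at -0.032 ± 0.070 and -0.035 ± 0.069 in old anti-miR-mix against old control and at 0.015 ± 0.070 and 0.088 ± 0.069 in old anti-miR-mix against young libraries.

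Among 14096 genes that averaged 50 counts or more, the pattern most like the mean of the 4 pericyte genes (each gene scaled to unit variance, group means taken off, 19 libraries) was that of Bgn (r = 0.80), followed by Zic2 (0.78), Gabpb1 (0.77), Ceacam1 (0.76) and Nid1 (0.76). Most like the mean of the 3 smooth muscle genes were Ikbkg (0.84), Col18a1 (0.81), Edn3 (0.81), Aox3 (0.80) and Tmem132c (0.79). These are the highest of all the correlations computed and are given as a description. The 4 pericyte genes did not share a pattern (r of their pairs from -0.39 to 0.55, median -0.005), the highest pair being Vtn and Anpep. Likeness to their mean therefore does not mark a gene as a pericyte gene.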

How the data were processed

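The 19 RNA sequencing libraries of CA1 from male mice fell into 3 groups, taken from the sample descriptions. Per the labels and the study's methods, the authors prepared libraries with the TruSeq RNA kit v2, sequenced single-end reads of 50 bases, aligned them to mm10 (GRCm38) with STAR 2.5.2b and counted reads per gene with featureCounts (Subread 1.5.1), with the strand and multi-mapping options not given in the sources used here. The deposited count files hold raw read counts per Ensembl gene for 48709 genes, of which 48349 were matched to a symbol in GENCODE. A deposited table holds log2 values for 18761 genes, which equal log2(CPM + 1) less a slope per gene times each library's number between 1 and 4, here called the processing number. The numbers were recovered from the values, and their meaning is not given in the sources used here.

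Counts were tested with edgeR 4.0.16 (R 4.3.3; glmQLFit, glmQLFTest, TMM) with the 3 groups in one fit, over 19286 genes (5 reads or more in 50% or more of libraries), with Benjamini-Hochberg adjustment over all genes tested and a threshold of 0.05. Standard errors are the log2 fold change divided by the square root of F, and intervals are 95%. Levels are log2 CPM with a prior count of 2, and FPKM over the union of exons. The labels do not name the animal of each library, so p-values measure the spread between these libraries. Alternatives were DESeq2 1.42.0, limma 3.58.1 on the deposited log2 values, other normalizations, no filter, fits of 2 groups, the processing number, libraries merged or left out, and the replicate number as a block. The fit was tested on simulated data. Seeds and promoters were read from RefSeq and GENCODE sequences.

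The members and gene lists were chosen with earlier results of these data known. The named genes were all 9 members, from each of the 6 lists up to 4 genes past the threshold in a comparison (largest change first) or else up to 2 of highest mean count, and the 5 genes most like each class. Reads of a gene that overlaps another cannot be assigned without strand, which touches Tagln, Notch3 (Gm17276) and Abcc9 (5330439B14Rik), and Acta2 shares sequence with other actins. Depth was 26653511 to 38908947 counted reads per library. The intervals of log2 fold changes and ratios come from the edgeR fit and include the spread between libraries.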

Additional observations from a re-analysis of the deposited data

Results flagged for a closer look

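In 30 groups tested (9 genes and the pericyte minus smooth muscle difference in each of 3 groups), 1 value stood apart from the rest of its group by Dixon's test, where chance gives about 1 in 20. Vtn in old control replicate 1 was 5.85 log2 CPM, and the next highest old control library was at 5.64. The same library had the highest Acta2 (2.82) and Tagln (2.65) of its group and the lowest Rgs5 (6.54) and Anpep (1.32). Without it, the log2 fold change of Vtn in old anti-miR-mix against old control was 0.083 in place of 0.035.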

How the results depend on the processing

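No alternative called any member in any comparison, by edgeR, DESeq2 or limma, and the lowest adjusted p was 0.0967 for old control against young, 0.329 for old anti-miR-mix against old control and 0.106 for old anti-miR-mix against young. The number of all genes called in old control against young (514) was 897 with DESeq2, 772 with only the 2 groups compared, 323 with no filter, 313 with old control replicates 5 and 6 as 1 library, and, in 2 alternatives chosen after seeing the data, 169 without young 4, young 6 and old anti-miR-mix 6 and 139 without old control 5, old control 6 and old anti-miR-mix 2. In old anti-miR-mix against old control (129) it was 264 with DESeq2, 55 with only the 2 groups, 9 with the processing number as a factor, 33 with the merged libraries, and 244 and 0 in the added alternatives. Beside this 0, from edgeR, the only tool run without those libraries, 1130 genes had an unadjusted p under 0.05. In old anti-miR-mix against young (1196) it was 606 without young 4, young 6 and old anti-miR-mix 6. With 1 library left out, these counts ran from 214 (without young replicate 4) to 746 (without young replicate 2), from 24 (without old control replicate 2) to 247 (without old anti-miR-mix replicate 1) and from 897 (without young replicate 6) to 1268 (without old anti-miR-mix replicate 1).

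Signs of members near 0 turned. For old control against young, Notch3 was 0.000012 with DESeq2, 0.012 with upper-quartile normalization and 0.016 without young 4, young 6 and old anti-miR-mix 6, and -0.028 to 0.032 with 1 library left out. Rgs5 was 0.0079 with upper-quartile normalization, 0.0038 and 0.011 with the processing number as a factor and as a linear term, 0.019 without young 4, young 6 and old anti-miR-mix 6, and -0.034 to 0.033 with 1 library left out. Abcc9 was 0.013 with upper-quartile normalization, 0.014 with the processing number as a factor, 0.017 with the merged libraries, 0.0026 with the replicate block, 0.011 and 0.051 in the added alternatives, and -0.036 to 0.032 with 1 library left out. For old anti-miR-mix against old control, Notch3 was 0.0071 and Myh11 0.035 with the processing number as a factor, Myh11 was 0.012 without old control 5, old control 6 and old anti-miR-mix 2, and Vtn was -0.032 without young 4, young 6 and old anti-miR-mix 6. With 1 library left out, Vtn ran from -0.030 to 0.083 and Acta2 from -0.016 to 0.14. For old anti-miR-mix against young, Pdgfrb was 0.013 with upper-quartile normalization, 0.0014 with library size only, 0.0032 with the replicate block and -0.049 to 0.018 with 1 library left out, Anpep -0.17 to 0.091 with 1 library left out, and Tagln 0.0037 with the processing number as a factor. The causes were not tested.

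The difference of pericyte and smooth muscle means moved by less than the spread within groups in the alternatives computed for it (other scalings and prior count, the deposited log2 values, the processing number as a factor, the merged libraries, Pdgfrb and Notch3 counted as pericyte genes, the added alternatives and 1 library left out), from 0.10 to 0.26, -0.058 to 0.078 and 0.11 to 0.27 with 1 library left out. Same-numbered libraries did not deviate together in a regular way, with r from -0.63 to 0.69. The labels do not say whether they are paired, and these values do not settle it. With the replicate number as a block in 18 libraries, 650, 246 and 1190 genes were called, beside 514, 129 and 1196 in the main fit. Of the 9 members, 0 were called with the block. Depth limits Anpep most, whose counting error alone was 0.135 on the log2 scale.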
